A study of Mus musculus with 8 samples.

Results

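The 10 genes described here encode nuclear receptors for retinoids, oxysterols and fatty acids together with their COUP relatives. They are the liver X receptors Nr1h3 and Nr1h2, the retinoid X receptors Rxra and Rxrb, the retinoic acid receptors Rara, Rarb and Rarg, the COUP factors Nr2f1 and Nr2f2, and the fatty acid receptor Ppard. They were taken by name, as every array probe whose RefSeq accession carries 1 of these symbols. This gave 15 probes for all 10 genes, out of 20644 named genes with a probe. The probe with the highest mean level stood for a gene, and 5 genes (Nr1h3, Rxra, Rara, Rarb and Nr2f1) had a second probe. All 10 chosen probes were well above background on 8 of 8 arrays, so none depended on a filter on dim probes.

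RNA came from mouse 3T3-L1 cells, a preadipocyte line that hormones turn into fat cells after confluence. Unmodified cells (WT) were compared with cells stably transfected with shRNA-8, a hairpin against the long noncoding RNA slincRAD (sh8), at days -2, 0, +2 and +4. Both lines grew in 10% newborn calf serum, reached confluence at day 0 and were then given 0.5 mM isobutylmethylxanthine, 1 µM dexamethasone and 167 nM insulin, so the days +2 and +4 follow induction in both. Each line and day gave 1 one-colour Agilent array, 8 in all. The sh8 cells carry 1 hairpin, and the sources used here do not say whether they are 1 clone. Neither a line with a control hairpin nor slincRAD itself was analysed here.

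Nuclear receptors of this group bind DNA mostly as pairs with a retinoid X receptor, at direct repeats of the hexamer AGGTCA or close variants, and the spacing of the repeat favours one pair over another. Oxysterols switch on the liver X receptors, retinoic acid the retinoic acid receptors, and fatty acids the peroxisome proliferator-activated receptors. The COUP factors compete for the same repeats and often repress. In preadipocytes, retinoic acid given early blocks fat cell formation, Pparg with a retinoid X receptor drives it, and Nr2f2 is known as a brake on it.

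Values are log2 processed intensities minus the 75th percentile of the same array, so a level of 0 is that percentile, and levels of different genes are not compared because probes differ in brightness. Differences are sh8 minus WT on the log2 scale. The 75th percentile lay between 761 and 1242 intensity units, between 64.9% and 81.7% of probes were well above background on an array, and the number of saturated spots was 0. No line and day has a second array, so limma's p-values reflect the day-to-day spread of a line difference, and nothing in the labels says that arrays came from separate cultures. The number of arrays limits the precision. Arrays with the same scan date in their headers were taken as the same slide, and no slide name was used. By this, days -2 and 0 were read on a first slide and days +2 and +4 on a second. Day +2 against day 0 and the slide or scan date therefore cannot be told apart. Preadipocyte and fibroblast markers were well above background on every array (8 or 9 of 9), and fat cell markers on 5 or 6 of 10 before induction and 10 of 10 after. Pparg was lower in sh8 (-1.59 ± 0.17 SE, limma adjusted p = 0.0116), as was the fatty acid carrier Fabp4 (-1.53 ± 0.13, limma adjusted p = 0.0101). Markers of lung epithelium were well above background for 6 to 8 of 15 genes on the first slide and for 15 of 15 on the second, in both lines, with a summed level of 8.82 to 11.8 times the 75th percentile on the first and 23.7 to 36.1 times on the second. Red blood cell genes went from 2 of 5 to 5 of 5. Sftpc, the defining surfactant gene, was not well above background on the first slide and stood at 1.02 to 1.62 on the second. The part of these genes in any result below was not tested. In RNA from whole cultures, fewer cells of a type and less RNA per cell cannot be told apart.

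In sh8 cells 2 of the receptors were higher than in WT and 2 were lower. Among the liver X receptors Nr1h3 was lower and Nr1h2 higher, among the retinoic acid receptors Rara was higher, and of the COUP factors Nr2f2 was lower. These 4 of 10 passed limma's adjusted threshold of 0.05, against 27.1% of all 26460 genes and transcripts tested. An unadjusted limma p under 0.05 was found for 7 of 10 receptors and for 11595 of the 26460. Over all features 16.8% were higher and 10.3% lower. The split depended on scaling, with 4437 higher and 2723 lower here but 2642 and 2570 under quantile scaling. The median change was 0.15 over the 10 receptors and 0.13 over all features. The line difference had the same direction on all 4 days for 8 of 10 receptors, where 52.7% of all features did so, and the ranges of the lines did not overlap for 3 of 10, where 17.3% did so. All 4 calls were lost when day 0, day +2 or day +4 was left out. Cell type markers differed between the lines as well. The summed level of 10 fat cell markers, Pparg among them, was lower in sh8 on every day, at 12.1 to 26.8 times the 75th percentile against 36.4 to 70.6 times in WT. This sum rests mostly on the bright genes Lpl, Fabp4 and Pparg. The log2 median of the list was higher in sh8 at days -2, 0 and +2 (-4.83, -4.55 and -3.29 against -5.21, -4.85 and -3.36). At day +4 it was lower (-3.59 against -1.83). Car3 was higher in sh8 on every day, though not well above background before induction. The summed level of 11 macrophage and leukocyte markers, of which 9 to 11 were well above background, was higher in sh8 on every day, at 9.32 to 10.3 against 6.76 to 7.80 times. Endothelial markers (5 to 10 of 10 well above background) and preadipocyte and fibroblast markers were also higher in sh8 on every day by their summed level, at 2.38 to 5.52 against 1.69 to 4.40 times and 543 to 699 against 475 to 626 times. The log2 median of the endothelial list was lower in sh8 at day 0 (-5.79 against -4.22) and higher on the other days. Among its genes Pecam1, Kdr, Egfl7 and Esam were higher in sh8 on every day, while Vwf was lower at days -2 and 0. Of the preadipocyte and fibroblast markers, Col1a1, Col1a2 and Thy1 were higher in sh8 on every day. Dlk1, Pdgfra, Pdgfrb and Lum were lower on every day. The log2 median of this list was lower in sh8 at day 0 (6.09 against 6.18) and higher on the other days. Of the defining markers, Ptprc, Adgre1 and Pecam1 were well above background on 8 of 8 arrays and Cdh5 only on the second slide. These sums and medians were taken on the 75th percentile scale alone, and the part of these markers in the line differences was not tested.

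**Figure D1:**
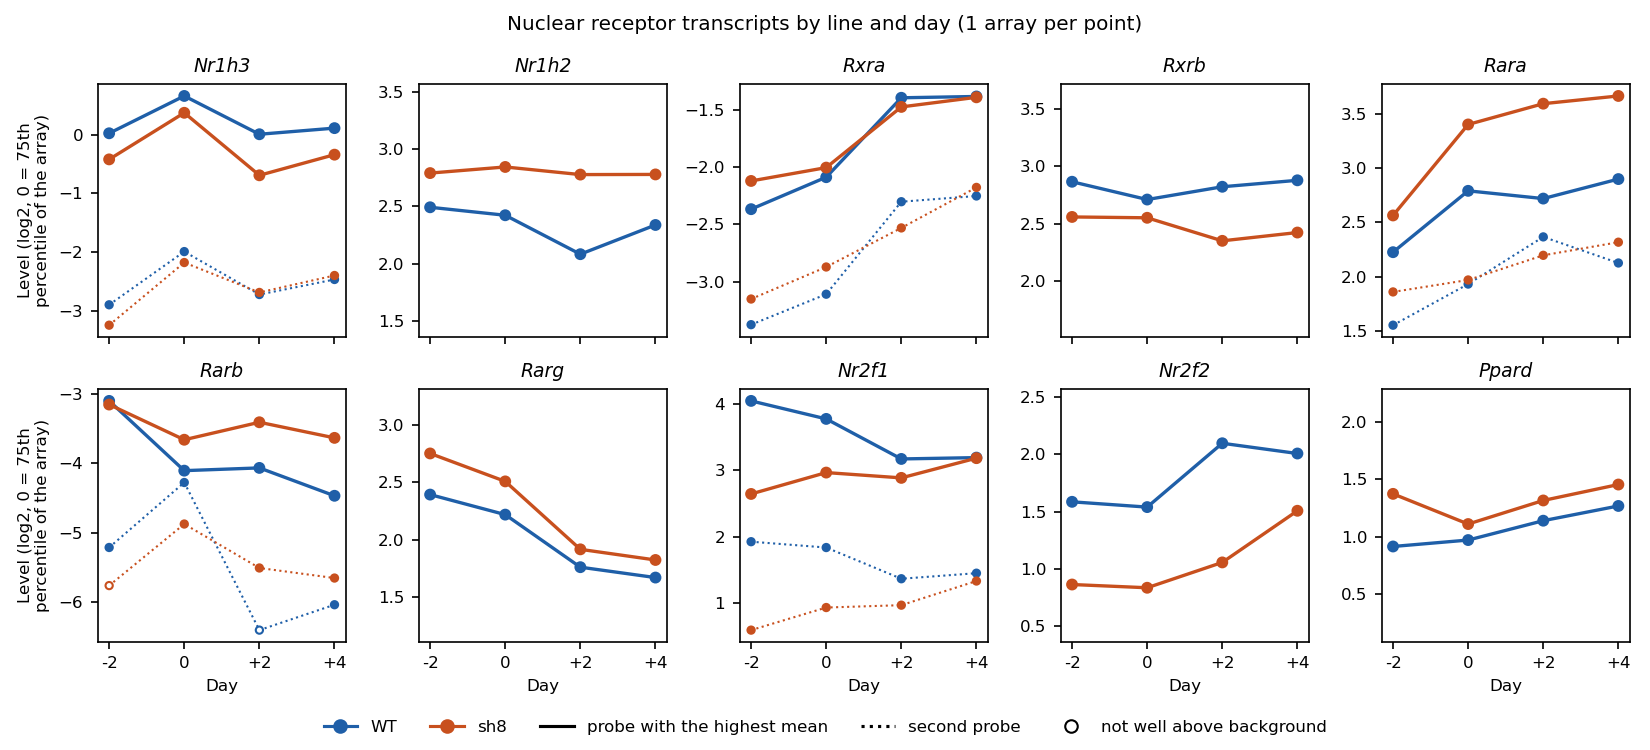
Level of each receptor (log2, 0 is the 75th percentile of the array) against day, with 1 array per point, WT in blue and sh8 in orange. Solid lines are the probe with the highest mean, dotted lines the second probe where there is one, and open circles were not well above background; the lines of Nr1h2, Rxrb and Nr2f2 do not overlap, and those of Nr2f1 meet at day +4.

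Nr1h3, the liver X receptor that fat cells and macrophages make in quantity, had levels of 0.025, 0.66, 0.0083 and 0.11 in WT at days -2, 0, +2 and +4. In sh8 its levels were -0.42, 0.37, -0.69 and -0.34. On this chosen probe each sh8 array lay below the WT array of its day, while the ranges of the lines overlapped because day 0 was high in both. The differences were -0.44, -0.29, -0.70 and -0.45, and the fit gave a 1.39-fold lower level (-0.47 ± 0.11 SE, limma adjusted p = 0.0353). The second, dimmer probe of Nr1h3 differed by -0.11 (limma unadjusted p = 0.386). On that probe sh8 was below WT at days -2 and 0. It was slightly above WT at day +2 (-2.69 against -2.72) and day +4 (-2.40 against -2.47). With the mean of both probes the change was -0.29 with a limma adjusted p = 0.0727. With slide instead of day as the block, the adjusted p of limma was 0.179, and the difference was -0.37 on the first slide and -0.58 on the second.

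Nr1h2, the liver X receptor found in most tissues, had WT levels of 2.49, 2.42, 2.08 and 2.34. Its sh8 levels were 2.79, 2.84, 2.78 and 2.78. Every sh8 array was above every WT array, and the sh8 levels stayed within a narrow band while the WT level was lowest at day +2. The fit gave a 1.38-fold higher level (0.46 ± 0.11 SE, limma adjusted p = 0.0358), with a difference of 0.36 on the first slide and 0.57 on the second. By the chosen probes, Nr1h2 thus differed between the lines in the direction opposite to Nr1h3. For Nr1h3 this rests on its brightest probe, since its second probe did not pass.

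Rxra, a shared partner of the other receptors, had WT levels of -2.37, -2.09, -1.40 and -1.39 and sh8 levels of -2.12, -2.01, -1.48 and -1.39. Both lines followed the same course and met at day +4. The fitted difference was 0.061 with a 95% interval of -0.20 to 0.32 (limma adjusted p = 0.664), and its sign turned under quantile scaling. Its second probe gave 0.077.

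Rxrb, the other retinoid X receptor, had WT levels of 2.87, 2.71, 2.82 and 2.88 and sh8 levels of 2.56, 2.55, 2.35 and 2.42. All 4 sh8 arrays lay below all 4 WT arrays. The difference of -0.35 ± 0.10 SE did not pass (limma adjusted p = 0.0603), and it passed with normexp background correction, at -0.37 with a limma adjusted p = 0.0234, and with probes well above background on all 8 arrays (limma adjusted p = 0.0342).

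The retinoic acid receptors are tied to their own ligand at the promoter of Rarb, a classic target that retinoic acid switches on. The stretch around its repeat is shown because Rarb is both a receptor and a readout of the pathway, and Cyp26a1, which breaks down retinoic acid, is shown because it was the other gene of the lists described here with that repeat. Sequences are RefSeq promoters of GRCm38.p6, 250 bases before to 50 after a start, with the match to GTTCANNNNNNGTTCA on either strand in capitals.
Rarb: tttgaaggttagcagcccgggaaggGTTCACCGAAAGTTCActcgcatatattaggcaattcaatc
Cyp26a1: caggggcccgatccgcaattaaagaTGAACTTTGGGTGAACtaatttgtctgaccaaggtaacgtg
The Rarb stretch is chr14:16575488-16575553 on the minus strand, and its repeat runs from 52 to 37 bases before the start. The Cyp26a1 stretch is chr19:37697751-37697816 on the plus strand, with the match on the opposite strand. This repeat occurred in 25 of 32851 promoters (0.0761%). The single hexamer AGGTCA occurred on either strand in 16.3% of promoters. Among the 18 promoters of the 10 receptors it was found at 1 start each of Rxra, Rara and Rarg. The repeats AGGTCANAGGTCA (0.0396% of promoters) and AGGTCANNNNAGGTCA (0.0152%) were in none of the 18. A match describes these letters and no binding.

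Rara, the retinoic acid receptor found in most cells, had WT levels of 2.23, 2.79, 2.72 and 2.90. In sh8 the levels were 2.56, 3.40, 3.59 and 3.66. The sh8 array was above the WT array on each day, and the difference was 0.34 at day -2 and 0.61, 0.87 and 0.76 at the later days. The fit gave a 1.57-fold higher level (0.65 ± 0.12 SE, limma adjusted p = 0.0257). The second probe of Rara differed by 0.091 (limma unadjusted p = 0.466), with sh8 above WT on 3 of 4 days. The slide as a block gave a limma adjusted p = 0.0829, and the difference was 0.47 on the first slide and 0.82 on the second.

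Rarb was dim but well above background on all 8 arrays, at -3.10, -4.10, -4.06 and -4.47 in WT and -3.15, -3.66, -3.41 and -3.63 in sh8. The lines were alike at day -2 and sh8 was higher on the other 3 days. The difference of 0.47 ± 0.17 SE did not pass (limma adjusted p = 0.0992), and it passed on the second slide alone, at 0.75 with a limma adjusted p = 0.0482. The second probe, not well above background in WT at day +2 and in sh8 at day -2, differed by 0.033. Beside the repeat printed above, Cyp26a1 was well above background in WT at days -2 and 0 (-5.07 and -4.77) and on none of the other 6 arrays.

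Rarg, the third of these receptors, had WT levels of 2.39, 2.22, 1.76 and 1.67 and sh8 levels of 2.75, 2.51, 1.92 and 1.82. The sh8 array was higher on each day and both lines had their lowest level at day +4. The difference of 0.24, with a 95% interval of 0.00092 to 0.48, did not pass (limma adjusted p = 0.113).

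Nr2f1, also called COUP-TFI, was the receptor whose line difference varied most from day to day. WT levels were 4.05, 3.77, 3.17 and 3.19, and sh8 levels were 2.65, 2.97, 2.89 and 3.18. WT was far above sh8 at day -2, the gap narrowed on each later day, and the lines met at day +4. The difference of -1.40 at day -2 was the only one of the 10 at least 2-fold on that day, when 10.3% of features detected on an array of the pair reached that size. The fit over all days gave -0.62 with a 95% interval of -1.28 to 0.029 and did not pass (limma adjusted p = 0.126). Its second probe gave -0.69.

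Nr2f2, also called COUP-TFII, had WT levels of 1.59, 1.54, 2.10 and 2.01. In sh8 the levels were 0.87, 0.84, 1.06 and 1.51. Every sh8 array was below every WT array. The differences were -0.72, -0.70, -1.04 and -0.50, and at day +2 Nr2f2 was the only receptor of the 10 at least 2-fold apart, when 19.6% of features were. No receptor reached that size at day 0 or day +4, when 11.8% and 14.8% of features did. The fit gave a 1.67-fold lower level (-0.74 ± 0.12 SE, limma adjusted p = 0.0201), the lowest p among the receptors, with -0.71 on the first slide and -0.77 on the second. Without day -2, the change was -0.75 with a limma adjusted p = 0.0501.

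Ppard, a fatty acid receptor made in most tissues, had WT levels of 0.91, 0.97, 1.14 and 1.27 and sh8 levels of 1.37, 1.11, 1.32 and 1.46. The sh8 array was higher on each day, by 0.46 at day -2 and by 0.14 to 0.19 later. The difference of 0.24, with a 95% interval of -0.021 to 0.50, did not pass (limma adjusted p = 0.135).

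**Figure D2:**
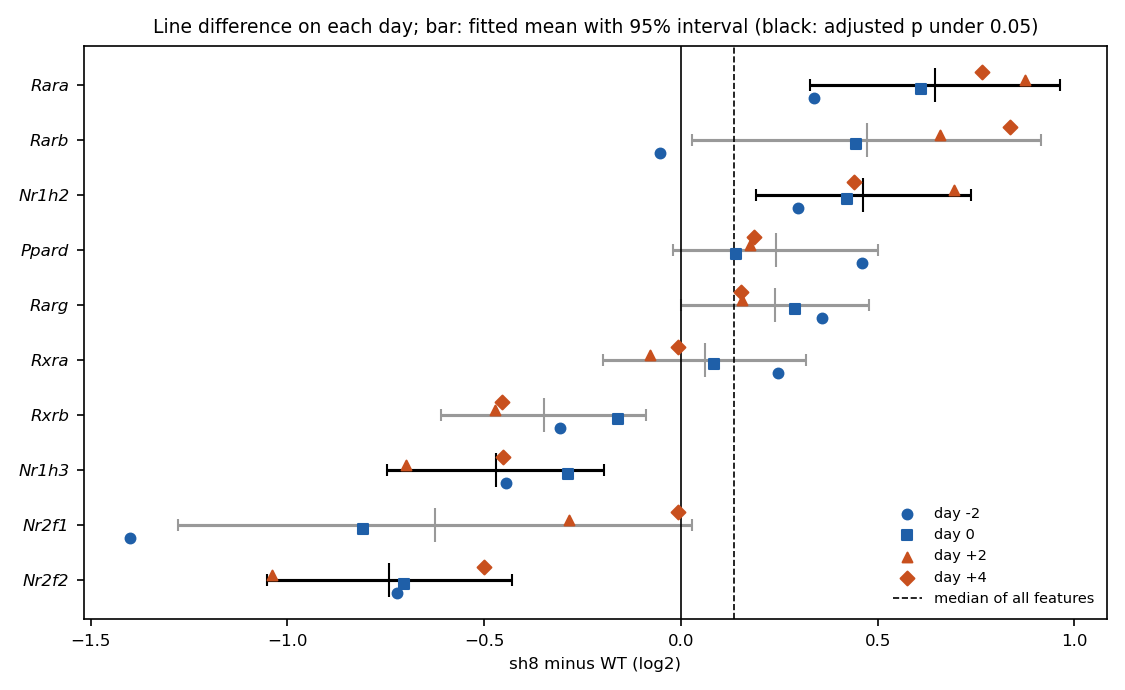
Difference sh8 minus WT (log2) of each receptor, with a point for each day and a bar for the fitted mean and its 95% interval, black where the limma adjusted p was under 0.05. Nr1h3 and Nr2f2 lie below 0 and Nr1h2 and Rara above it with black bars, and the dashed line is the median of all features, 0.13.

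Whether the line difference changed after induction was asked with an interaction term of line with the period, which leaves 2 residual degrees of freedom. The period before induction is the first slide and the period after it the second. For this term, too, induction and the slide or scan date cannot be told apart. For this term 0 of 10 receptors passed, against 0% of all features, while 1 receptor and 5259 features had an unadjusted p under 0.05 by limma. That receptor was Nr2f1, whose mean difference was -1.10 before and -0.15 after induction, a shift of 0.96 ± 0.27 SE (limma unadjusted p = 0.0273, adjusted p = 0.207). Its second probe shifted by 0.86 (limma unadjusted p = 0.0221). The second probe of Rarb shifted by 1.22 and its chosen probe by 0.55 (limma unadjusted p = 0.00712 and 0.0834), neither of which passed after adjustment (0.147 and 0.304). The second Rarb probe was not well above background in sh8 at day -2 and in WT at day +2. For Nr2f2 the shift was -0.057 with a 95% interval of -0.74 to 0.62.

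The step to confluence, day 0 against day -2, was compared across both lines. By limma 0 of 10 receptors passed, against 0% of all features, and 3 receptors and 6726 features had an unadjusted p under 0.05. These were Nr1h3, at 0.64 in WT and 0.79 in sh8 (mean 0.71, limma adjusted p = 0.0868), Rara, at 0.56 and 0.84 (mean 0.70, limma adjusted p = 0.104), and Rarb, at -1.01 and -0.51 (mean -0.76, limma adjusted p = 0.149). The second probe of Nr1h3 gave 0.99, that of Rara 0.24 and that of Rarb 0.91, which for Rarb is the opposite sign. That Rarb probe was not well above background in sh8 at day -2. With normexp background correction Nr1h3 passed, at 0.63 with a limma adjusted p = 0.0329.

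After induction, at day +2 against day 0, 1 of 10 receptors passed, against 11.9% of all features (8.99% higher and 2.91% lower). Quantile scaling gave 1213 features higher and 740 lower in place of 2378 and 769. Nr1h3 fell by 0.65 in WT, from 0.66 to 0.0083, and by 1.06 in sh8, from 0.37 to -0.69. The mean change was -0.86 ± 0.15 SE, 1.81-fold lower (limma adjusted p = 0.0329), and the second probe changed by -0.62 (limma unadjusted p = 0.0118). The call was lost when any 1 of the 8 arrays was left out, with limma adjusted p-values from 0.0567 to 0.164. On the slide of day +2 all 15 lung epithelium markers were well above background, as given above.

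Rxra was higher at day +2 by 0.69 in WT and 0.53 in sh8, a mean of 0.61 ± 0.14 SE that did not pass (limma adjusted p = 0.0569), and its second probe gave 0.57. Rarg was lower by a mean of -0.53 ± 0.13 SE (limma adjusted p = 0.0663), with -0.46 in WT and -0.59 in sh8. Both passed with normexp background correction and with probes well above background on all 8 arrays. Nr2f2 differed by 0.56 in WT and 0.22 in sh8, a mean of 0.39 with a 95% interval of -0.051 to 0.83. The chosen Rarb probe moved by 0.15 and its second probe by -1.38, so the direction for Rarb depends on the probe. The second probe was not well above background in WT at day +2.

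In the late step, day +4 against day +2, 0 of 10 receptors passed, against 0% of all features, and 0 receptors and 1441 features had an unadjusted p under 0.05 by limma. The widest mean step among the receptors was that of Rarb, at -0.31 with a 95% interval of -0.94 to 0.31.

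**Figure D3:**
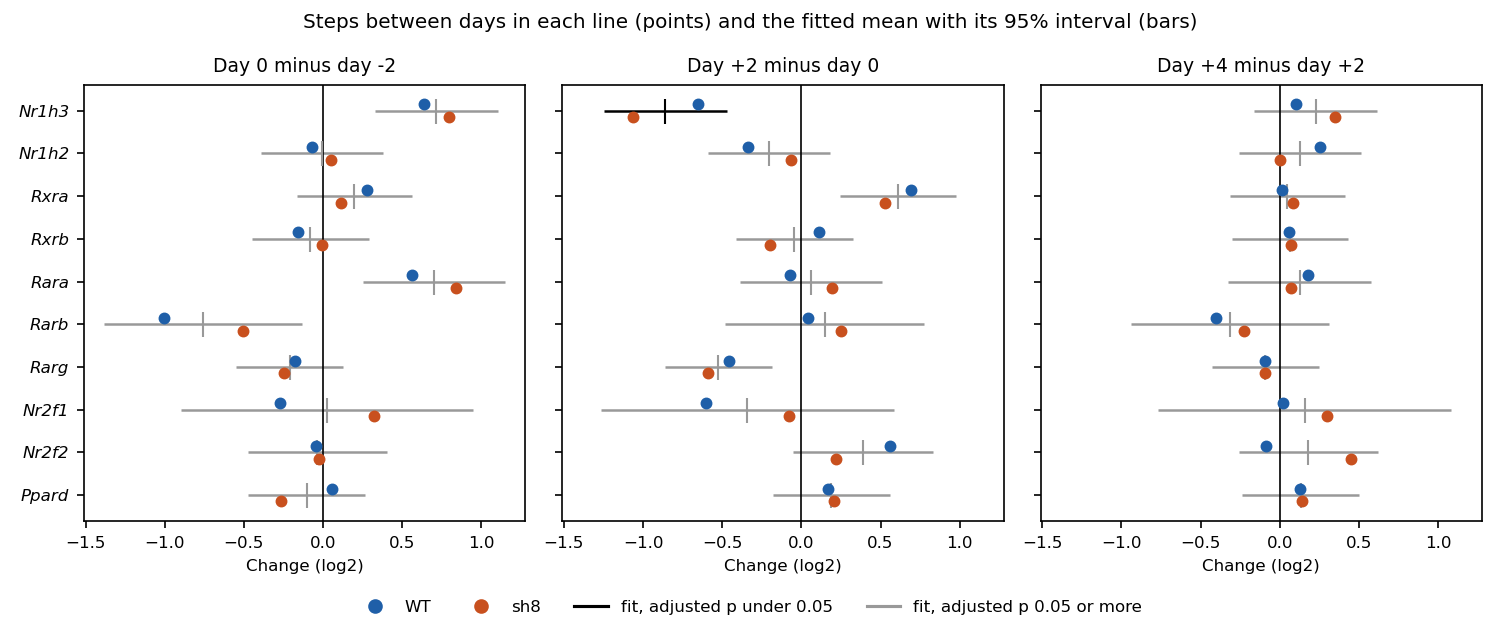
Change between successive days (log2) for each receptor, with WT in blue, sh8 in orange and a bar for the fitted mean and its 95% interval. Only Nr1h3 at day +2 minus day 0 has a black bar (limma adjusted p under 0.05), and Rxra and Rarg at that step lie clear of 0 in both lines without passing.

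The pathway genes below are read against 16.8% of all features higher and 10.3% lower between the lines, and against 8.99% higher and 2.91% lower at day +2 against day 0. Every line call among them was lost without day +2 and without day +4. For all of them day +2 against day 0 cannot be told apart from the slide or scan date. Rbp4, Lrat, Slc2a4, Bcl11a and Cyp27a1, counted as higher at that step, were well above background on every array of the second slide. On the first slide they were so on no array. Retinoid uptake, binding and metabolism sets how much retinoic acid a cell makes and keeps. Of 31 genes listed for it 29 were tested, 6 were higher and 7 lower in sh8, and the median was 0.30. Rdh10, the dehydrogenase that starts retinoic acid synthesis from retinol, stood at -3.09, -2.50, -2.90 and -3.03 in WT and -1.98, -1.21, -1.24 and -1.48 in sh8 (a difference of 1.40, limma adjusted p = 0.0103). Crabp2, which delivers retinoic acid to its receptors, stood at 0.059, -0.015, 0.41 and 0.58 in WT and 0.81, 0.90, 1.15 and 1.27 in sh8 (0.77, limma adjusted p = 0.0132), and the retinal reductase Rdh11 was lower (-0.65). At day +2 against day 0, 3 of the 29 were higher and 1 lower. Rdh1, a retinol dehydrogenase, was higher by 1.10. Lrat, which stores retinol as esters, was at least 1.10-fold higher, because it was not well above background on either day 0 array, and Rbp4, the retinol carrier of blood, was well above background only on the second slide and has no fold. Cyp26a1, the 1 lower, was well above background at day 0 in WT alone and in neither line at day +2, so it has no fold here.

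Of 15 genes tested among 16 known to respond to retinoic acid, 1 was higher and 4 lower in sh8, with a median of -0.18. Hoxa3, a homeobox gene, stood at 1.64, 2.06, 1.83 and 1.80 in WT and -0.098, 0.57, 0.11 and -0.14 in sh8 (-1.72, limma adjusted p = 0.00833). Hoxb4 was lower by a smaller amount (-0.48), and Crabp2, which belongs to both lists, was the 1 higher. At day +2 Nrip1, a corepressor that retinoic acid induces, was the 1 higher, by 1.41, and Cyp26a1 was the 1 lower.

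Of 20 tested liver X receptor targets among 22, 5 were higher and 3 lower in sh8, with a median of 0.11. Abcg4, a sterol exporter, stood at -1.52, -1.32, -1.51 and -1.50 in WT and -0.48, -0.16, -0.34 and -0.22 in sh8 (1.16, limma adjusted p = 0.00918), and its second probe gave 1.42. Scd1, a fatty acid desaturase, was higher by 1.22. The lipoprotein lipase Lpl (-1.39) and the apolipoprotein Apoc1 (-0.97) were lower. At day +2 against day 0, 5 of the 20 were higher and 2 lower, where 8.99% and 2.91% of all features were. The sterol exporter Abcg1 rose by 1.43 and Scd1 by 1.86, and Slc2a4, the insulin-responsive glucose transporter, was at least 1.23-fold higher. Apoc1 fell, by 0.99.

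Of 16 genes for making, moving and breaking down oxysterols, 3 were higher and 5 lower in sh8, with a median of -0.19. Ch25h, which makes 25-hydroxycholesterol, stood at -4.08, -4.54, -6.26 and -5.14 in WT and -1.71, -2.13, -3.73 and -4.10 in sh8 (2.09, limma adjusted p = 0.0156), and the WT array of day +2 was not well above background. Cyp27a1, another sterol hydroxylase, is counted among the 3 higher but was well above background only on the second slide, at -5.66 and -5.61 in WT and -5.02 and -4.53 in sh8. The cholesterol synthesis enzyme Sc5d (-0.66) and the sterol carrier Stard4 (-1.24) were lower. At day +2, 2 were higher and 1 lower, with Sult2b1, a sterol sulfotransferase, at 1.25, Cyp27a1 at least 1.15-fold higher and the bile acid enzyme Hsd3b7 at -1.11.

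**Figure D4:**
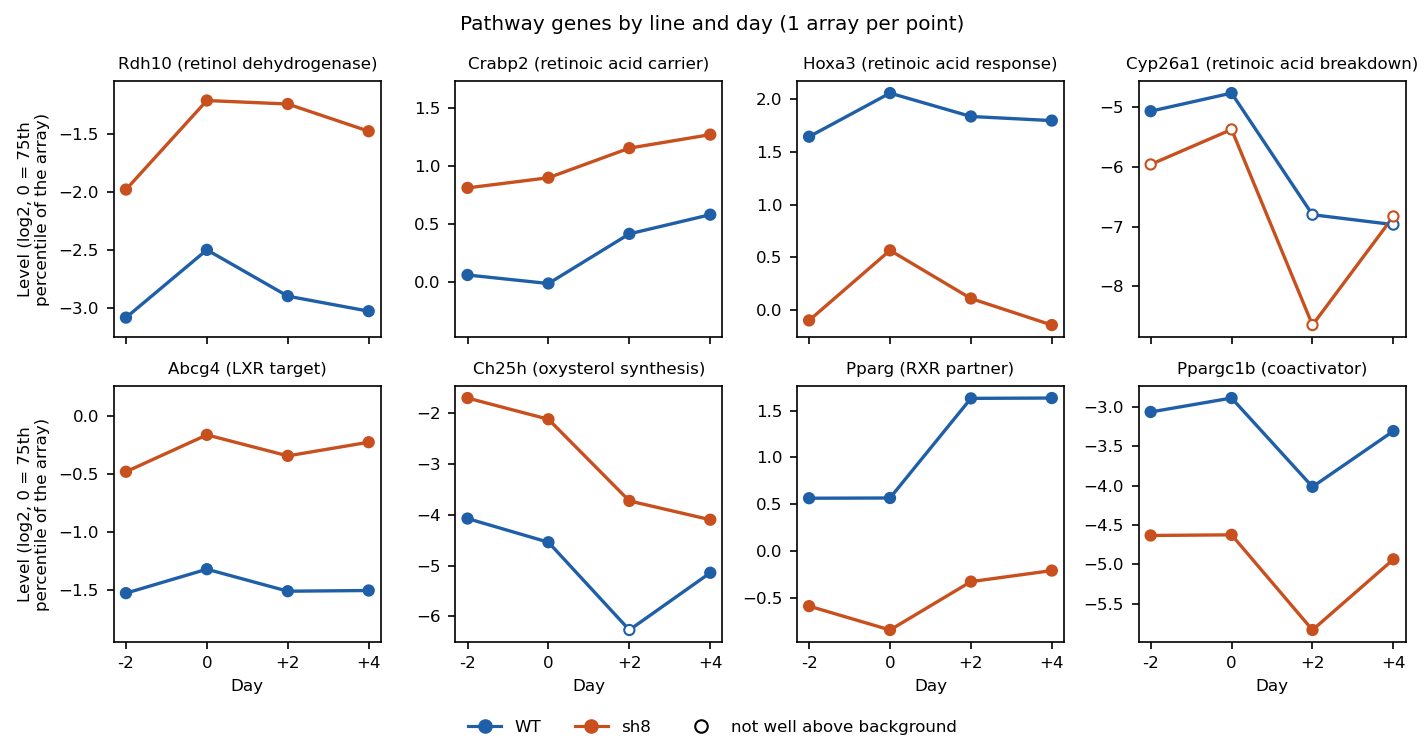
Level (log2, 0 is the 75th percentile of the array) of 8 pathway genes against day, with 1 array per point, WT in blue, sh8 in orange and open circles where a probe was not well above background. Rdh10, Crabp2, Abcg4 and Ch25h lie higher and Hoxa3, Pparg and Ppargc1b lower in sh8 on every day, and Cyp26a1 is measured only in WT at days -2 and 0.

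Of 16 targets of Ppard, 3 were higher and 1 lower in sh8, with a median of -0.0089. Acaa2, which closes the cycle of fatty acid oxidation (0.95), Cpt1a, which brings fatty acids into mitochondria (1.16, and 0.60 for its second probe), and the lipase inhibitor Angptl4 (0.54) were higher. Etfdh, which passes electrons from fatty acid oxidation to the respiratory chain, was lower (-0.46). At day +2 the carriers Ucp2 (1.13) and Ucp3 (1.06) were higher and Cpt1a was lower (-1.04).

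Among 28 corepressors and coactivators 2 were higher and 6 lower in sh8, with a median of -0.071. Ppargc1b, a coactivator of receptors that drive mitochondrial genes, stood at -3.06, -2.88, -4.01 and -3.30 in WT and -4.63, -4.62, -5.84 and -4.94 in sh8 (-1.69, limma adjusted p = 0.00828). The deacetylase Hdac3, which acts with the corepressors, was lower (-0.56). Ncor1, a corepressor that binds receptors without ligand, was lower by its brightest probe (-0.70), while its other probes gave 0.13 and 0.45. Zfpm2, a cofactor that binds COUP factors, was higher by 0.64. At day +2, 2 were higher and 2 lower, with Nrip1 as above, Bcl11a, also called COUP-TF interacting protein, at least 1.73-fold higher, and Ppargc1b (-1.17) and Zfpm2 (-0.86) lower. That bound holds for the brightest Bcl11a probe, and its second probe changed by 0.65 (limma unadjusted p = 0.0625).

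Among 39 other nuclear receptors 32 were tested, 8 were higher and 1 lower in sh8, with a median of 0.21. The 1 lower was Pparg, at 0.57, 0.57, 1.63 and 1.63 in WT and -0.58, -0.84, -0.32 and -0.21 in sh8. The bile acid receptor Nr1h4 passed as higher and was not well above background in either line at day 0. On the other 3 days it stood at -5.77, -5.11 and -5.76 in WT and -4.74, -3.30 and -3.70 in sh8. Nr2e3, a receptor known from the retina, is counted among the 8 higher but was well above background on only 3 of 8 arrays (1 WT and 2 sh8), so no difference is given for it. At day +2 against day 0, 6 of the 32 were higher, where 8.99% of all features were. These included Vdr, the vitamin D receptor (1.90), the immediate early receptor Nr4a1 (2.29), the orphan receptor Rorb (1.29) and Nr1h4, at least 2.53-fold higher. For Rorb this rests on its brightest probe, and its second probe gave -0.044 (limma unadjusted p = 0.842). Vdr was also higher in sh8, by 0.61 (limma adjusted p = 0.0432).

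**Figure D5:**
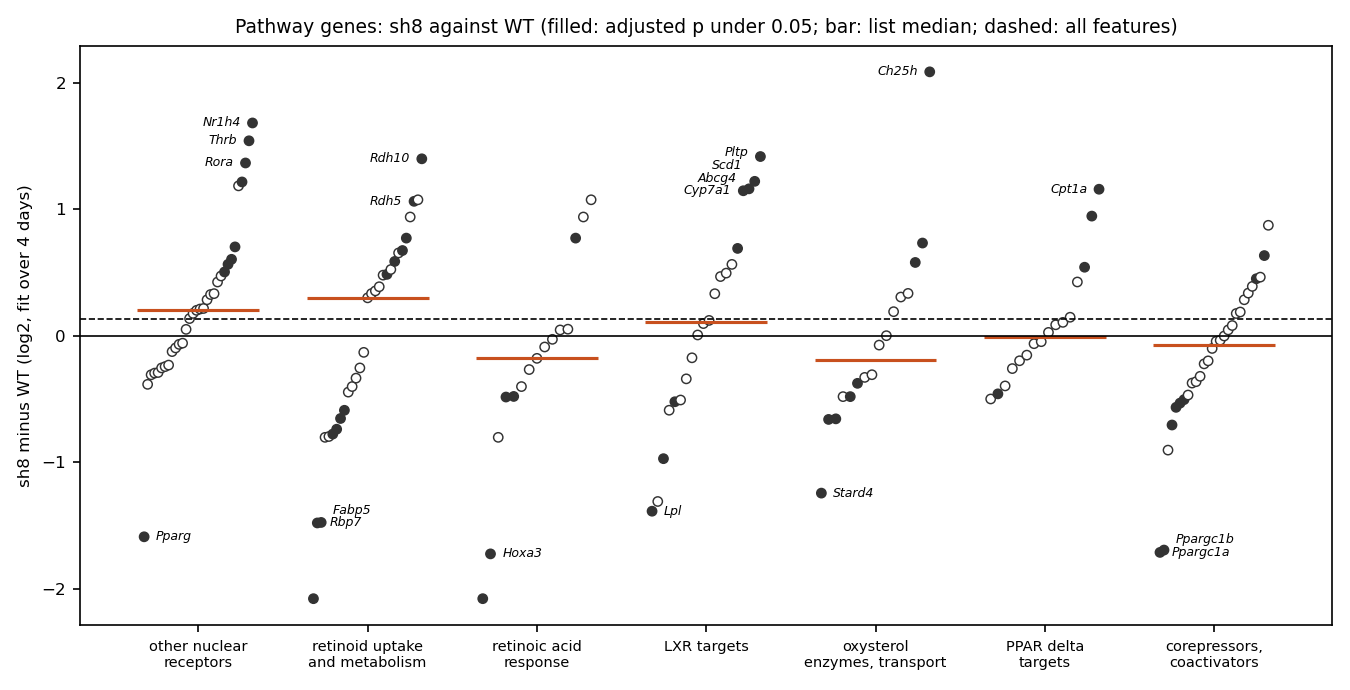
Difference sh8 minus WT (log2, fit over 4 days) of each gene in the 7 lists, filled where the limma adjusted p was under 0.05 and with a name at most of those that moved by 1 or more, with an orange bar at the list median and a dashed line at the median of all features. The medians lie between -0.19 and 0.30, and in every list points that passed lie on both sides of 0.

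To place each receptor's course among the other genes, its level over the 8 arrays was set against 13782 named genes well above background on all 8. With 8 points and so many genes, high correlations arise for any course, and they are given as a description. For Nr1h3 the closest were Akt2 (r = 0.99), Ptgir (0.98) and Abhd16a (0.98), and for Nr1h2 they included Wwox and Supt4b (0.98 each). For Rara they were Adcy9, Laptm4b and Pigm (0.99 each), and for Nr2f2 Arfrp1, Coq2 and Borcs5 (0.99 each). For Rxra the closest was Tsc22d1 (1.00), for Rarg Slc12a7 (1.00), for Rxrb Ormdl2 (0.99), for Rarb Xpo4 (0.98), for Ppard Jup (0.98) and for Nr2f1 Ripor1 (0.94).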

How the data were processed

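The 10 receptors, the gene lists and the tests were chosen with earlier results of these data known. The authors deposited a processed intensity per spot of each 1-colour array, from Agilent Feature Extraction 11.0.1.1, with mm9 as the build per the file headers. Their deposited log2 value table (equal quantiles, medians of 6.38), made by steps not given in the sources used here, served as an alternative. Spots of a probe were averaged without 1377 controls, and 27234 of 39429 probes were named through a RefSeq table of GRCm38.p6. Probes well above background on at least 2 arrays were kept, 1 per gene, giving 26460 features. The model in limma 3.58.1 (R 4.3.3) held day and line, which leaves 3 residual degrees of freedom, with Benjamini-Hochberg adjustment over all features. Normexp (offset 50) used the median signal, since the scanner files hold no mean signal. "At least" folds set the bright mean against, per array, the higher of the dim probe and the lowest level well above background. Named from each list were up to 4 genes past the threshold with the lowest p, and for each receptor the genes most alike; others were named after their values were seen, and some genes that the rule names are not reported here. The fit was tested on simulated data.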

Additional observations from a re-analysis of the deposited data

How the results depend on the processing

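No result turned its direction past the threshold under any alternative. The line difference kept its sign in 17 of 17 alternatives for 9 receptors and in 12 of 17 for Rxra. It passed in 9 alternatives for Rara, 7 for Nr2f2, 6 for Nr1h2, 4 for Nr1h3, 3 for Rarb, 2 for Rxrb, 1 for Rarg and 0 for Rxra, Nr2f1 and Ppard. The number of receptors called between the lines was 2 without a filter, 2 with the slide as a block, 0 on the first slide, 2 on the second, and 0 to 2 when an array was left out (2 without day -2). The number of features called was 0 on the first slide and 0 to 4212 without an array (4212 without day -2, 81 without day 0, 0 without day +2 or day +4). For day +2 against day 0, 1953 features passed under quantile scaling, 1963 with the authors' values and 0 to 2504 without an array, while 3 receptors passed with normexp, 3 with probes well above background on all 8 arrays and 0 without any 1 array. For day 0 against day -2, 3482 features passed with normexp, 10 with the authors' values and 1672 with probes on all 8 arrays, with 1 receptor (Nr1h3) in the first and in the last. For day +4 against day +2, 1 feature passed under quantile scaling and 1 with the authors' values. For the interaction, 1294 passed with normexp and 1115 with probes on all 8 arrays. Where 1 array was left out, the lone array of its day adds nothing to the line difference. The filter changes how many features share the adjustment, and a left-out day takes away residual degrees of freedom. The cause of a changed count was not tested for any alternative. The model with day compares the lines within each day and so pairs them by day. By replicate number, no paired analysis was possible because all arrays carry the same number. Signal over background limits the second Rarb probe, which was well above background on 6 of 8 arrays.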

Other observations

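Probes of the same gene disagreed for several genes of these pathways. Rara differed between the lines by 0.65 on 1 probe and 0.091 on the other. Ncor1 gave -0.70, 0.13 and 0.45 on its 3 probes. Rorb changed by 1.29 and -0.044 at day +2 against day 0. Rarb moved by -0.76 and 0.91 at day 0 against day -2, and by 0.15 and -1.38 at day +2 against day 0. Its second probe was not well above background in sh8 at day -2 and in WT at day +2. Probes of Nr2f1 (-0.62 and -0.69), Lpl (-1.39 and -1.27), Stard4 (-1.24 and -0.95) and Zfpm2 (0.64 and 0.50) gave like values. The parts of the transcripts that these probes read were not analysed here.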
